A study of Mus musculus with 2 samples.

Results

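MHC class II high macrophages are macrophages that carry large amounts of the proteins that show peptide antigens to CD4 T cells. Here they were picked out of single-cell RNA-seq of mouse synovium, the soft tissue that lines the knee joint, by unique molecular identifiers (UMIs), each of which stands for 1 captured RNA molecule. Cells under 1000 UMIs or 500 genes, or over 10% mitochondrial UMIs, were dropped. The members were chosen by UMIs of the genes that follow. Each had at least 5 UMIs of C1qa and C1qb together, at least 1 of Csf1r, at least 20 of H2-Ab1 and H2-Aa together, at most 1 each of Lyve1 and Cx3cr1, none of Cdh5, and under 0.5% of its UMIs from Col1a1, Col1a2 and Col3a1. The rule chose 131 of 10946 kept cells, 95 of 7075 in the control library and 36 of 3871 in the library labelled MMS. Their class II, complement C1q, Lyve1 and Cx3cr1 values therefore describe the choice and are not findings.

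All mice were wild type. One library was made from control knees and 1 from knees labelled MMS and D14, terms that the labels do not spell out, and each pooled 20 knees. The tissue was minced, digested with Liberase TL and DNase, and run on the 10x Genomics Chromium system. The labels name goblet cells as the cell type, which the markers given below do not show. With 1 library per group there was no replicate and no test. Each difference is between these libraries, and each interval is a 95% interval of counting error that leaves out the spread between cells and between mice.

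Class II molecules are pairs of an alpha and a beta chain. The invariant chain Cd74 holds the peptide groove closed until cathepsins and related enzymes in the endosome cut it away, and the H2-DM pair then exchanges its remnant for antigen peptides. The transactivator Ciita switches these genes on together. In many tissues, macrophages with high class II and the chemokine receptor Ccr2 are partly renewed from blood monocytes, while those with Lyve1 lie along vessels and are long-lived. Synovium also holds Cx3cr1 macrophages that form a barrier at the lining.

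The members of the control library held 1360120 UMIs in all, with a median of 13234 per cell and a range from 1960 to 41572. Those of the MMS library held 622194, with a median of 14716.5 and a range from 2799 to 43643. Mitochondrial UMIs were a median 3.5% of those of a control member and 5.12% of those of an MMS member. The libraries shared 6 barcodes, of which 4 were kept cells and none a member. Scrublet called 184 control and 106 MMS kept cells doublets, among them 3 control members and no MMS member.

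Macrophage genes were present in the members of both libraries. Adgre1, which encodes the macrophage antigen F4/80, was detected in 91.6% of control and 80.6% of MMS members, and Lyz2, a lysozyme of myeloid cells, in all of them. C1qc, another C1q chain that the rule did not use, was detected in 90.5% and 91.7%. Of the dendritic cell markers, Flt3 was rare and Cd209a less so. Flt3, the receptor of the dendritic growth factor, had UMIs in 2.11% of control and 5.56% of MMS members, against 58.2% and 70.6% of Cd209a dendritic cells, which were gated by at least 2 Cd209a UMIs, the same class II limit and fewer than 5 C1q UMIs. Cd209a itself had UMIs in 22.1% and 22.2% of members, at 71.3 and 69.1 CPM, the members' summed UMIs of a gene scaled by their total. The dendritic cells were at 1440 and 742 CPM, but their gate required the gene, so this gap was set in advance. Cd3e of T cells had no UMI in the 95 control or the 36 MMS members, which allows a share of cells with a UMI of up to 3.16% and 8.33%, and Cd79a of B cells had 1 UMI in control and none in MMS. The 7 B cell markers summed to 203 UMIs (149 CPM) in control and 113 (182 CPM) in MMS members, and 45 of 95 and 20 of 36 members held at least 2. Of these UMIs 193 and 105 were of Ighm, the heavy chain of IgM, and Ms4a1, Pax5 and Igkc were at 0 in both libraries. Their part in the results was not tested. The 9 fibroblast markers summed to 3418 CPM in control and 3046 CPM in MMS members, against 97985 CPM in control fibroblasts. The 9 macrophage markers, of which the rule used Csf1r, summed to 19263 CPM in control and 18327 CPM in MMS members. Control Lyve1 macrophages held 22487 CPM, and 4 of the 9 were at least 2-fold lower in control members than there, none higher. Of the 9, Fcgr1 had UMIs in 8 of 52 control members with at least 10 Retnla UMIs and 29 of 43 with fewer. The members thus held macrophage markers in both libraries, some of them at lower levels than in Lyve1 macrophages. Of the members, 23 of 95 in control and 13 of 36 in MMS had at least 1 UMI of Flt3, Zbtb46, Cd209a, Xcr1 or Clec9a, genes of dendritic cells.

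One MMS member stood apart. It held 6288 of the 6326 UMIs of the 8 neutrophil markers found over all 36 MMS members, which was 14.4% of its 43643 UMIs, beside 311 class II and 92 C1q UMIs. Without it the neutrophil markers were at 65.7 CPM in MMS members, and in the 95 control members they were at 5.15 CPM. In the MMS library S100a8, a neutrophil calcium-binding protein, had UMIs in 27.8% of members, but also in 31.0% of Lyve1 macrophages and 19.9% of endothelial cells, at median depths of 14716.5, 15751.5 and 8585.5 UMIs. The share in members thus lay between those of these sets, both of which should lack the gene, at depths that were not equal. The part of free RNA in it was not tested.

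The members made up 1.34% (exact Clopper-Pearson interval 1.09 to 1.64) of kept control cells and 0.93% (0.652 to 1.29) of kept MMS cells. Among all gated macrophages, which were 1110 control and 533 MMS cells that met the C1q, Csf1r, Cdh5 and collagen limits, they made up 8.56% (6.98 to 10.4) and 6.75% (4.78 to 9.23). These intervals overlap. The rest of the macrophages differed more. Macrophages with at least 2 Lyve1 UMIs were 85.8% of gated macrophages in control and 63.0% in MMS. Those with at least 2 Cx3cr1 UMIs and no more than 1 of Lyve1 were 3.51% and 19.1%. Class II low cells with at most 1 UMI of each of these genes were 2.16% and 11.1%. Of the macrophages with at most 1 UMI each of Lyve1 and Cx3cr1, the members were thus 95 of 119 (79.8%, 71.5 to 86.6) in control. In MMS they were 36 of 95 (37.9%, 28.1 to 48.4). As shares of 1 whole, these values cannot show which population changed in number.

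The threshold of 20 class II UMIs lay in a sparse part of the distribution. The highest cell just outside it had 17 UMIs in control and 15 in MMS, and the lowest cell inside had 20 and 39. Only 6 control and no MMS members lay between 20 and 29 UMIs, while 61 and 19 had 200 or more. Class II was not limited to the members. Of the Lyve1 macrophages, 114 of 952 in control and 7 of 336 in MMS had at least 20 class II UMIs, and of the Cx3cr1 macrophages, 33 of 39 and 27 of 102. Over all gated macrophages this was 21.8% (19.4 to 24.3) in the control library, and the MMS library had 13.1% (10.4 to 16.3). These intervals did not overlap. In both other populations the share was lower in the MMS library, while the members were chosen to be above the threshold in both.

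**Figure D1:**
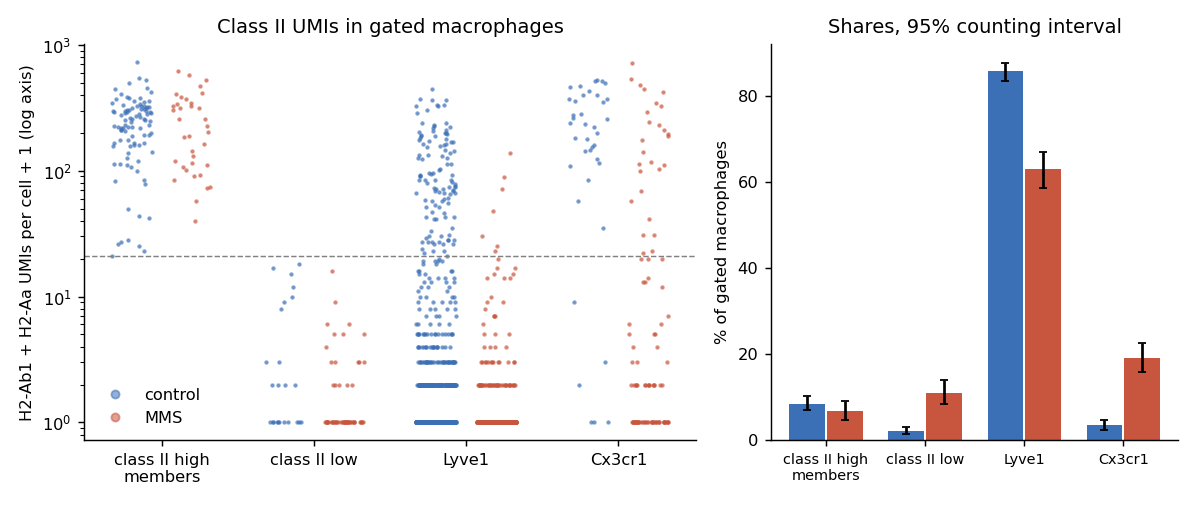
Left, UMIs of H2-Ab1 and H2-Aa plus 1 per cell (log axis) in the 4 sets of gated macrophages, 1 dot per cell, blue for control and red for MMS, with the threshold of 20 UMIs dashed. Right, each set as a percentage of gated macrophages, with 95% counting intervals as bars. The members were 8.56% in control and 6.75% in MMS, and most members lie far above the dashed line.

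The class II genes that the rule did not use were a little lower in MMS members. Cd74 ranged from 19 to 997 UMIs per cell in control members with a median of 317, and from 34 to 753 with a median of 240 in MMS. Every member of both libraries had it, and the per-cell ranges overlapped almost wholly. Summed over members it was at 22517 CPM in control and 18460.5 CPM in MMS, a log2 ratio of -0.29 (-0.32 to -0.26). H2-Eb1, the beta chain of the I-E molecule, was at 8178 and 6135 CPM (-0.41, -0.47 to -0.36), and it too had UMIs in every member. The chaperone chains H2-DMa and H2-DMb1 were at 1029 and 825 CPM in control and at 828 and 632 CPM in MMS (-0.31 and -0.39). H2-Ob, a chain of the H2-DM inhibitor, had 13 UMIs in control and 5 in MMS, too few to place. Over the 6 such genes with at least 10 UMIs in both libraries together, 5 were lower and 1, H2-DMb2 with 42 UMIs in all, was higher in MMS. Their median was -0.30, against 0.04 over all 9388 genes so measured. None of the 6 differed by 2-fold or more. Of all 9388 genes, 710 (7.56%) were at least 2-fold higher and 721 (7.68%) at least 2-fold lower in MMS members. By any amount, 4968 of the 9388 were higher and 4420 lower, the split beside which the list counts here and below stand. Among members with at most 5% mitochondrial UMIs, 77 control and 17 MMS cells, the list's median was -0.05.

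Ciita was at 177 CPM in both libraries, in 78 of 95 control and 27 of 36 MMS members, so the level of the transactivator differed by a log2 ratio of 0.00 (-0.34 to 0.33). To show what these genes share in sequence, the 120 bases before the start of 3 class II genes are printed, from RefSeq (GRCm38.p6), 5′ to 3′ on the gene's strand. Capitals mark CCAAT or its reverse complement ATTGG, the Y box of the class II promoter bound by the factor NF-Y, searched on both strands.
H2-Aa: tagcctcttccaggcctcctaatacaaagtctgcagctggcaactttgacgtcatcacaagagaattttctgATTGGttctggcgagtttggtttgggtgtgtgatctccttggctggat
H2-Eb1: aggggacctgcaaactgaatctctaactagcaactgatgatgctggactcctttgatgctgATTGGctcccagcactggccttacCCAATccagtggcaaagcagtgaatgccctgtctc
H2-DMb1: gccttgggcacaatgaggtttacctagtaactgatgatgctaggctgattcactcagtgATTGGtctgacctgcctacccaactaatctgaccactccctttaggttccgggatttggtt
These windows are chr17:34287824-34287943 on the minus strand for H2-Aa, chr17:34305747-34305866 on the plus strand for H2-Eb1 and chr17:34153071-34153190 on the plus strand for H2-DMb1. The first match begins 48, 59 and 61 bases before the start, in ATTGG orientation in each of the 3, and H2-Eb1 has another in CCAAT orientation 35 bases before. Of 32844 windows of the same length before RefSeq gene starts, 21.3% held this motif, so a match is common. Both windows given for H2-DMa lacked these letters.

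Of the enzymes that prepare peptides, Ctss and Ifi30 were higher in MMS members, while the class II chains were not. Ctss, the cathepsin that removes the invariant chain in antigen-presenting cells, had UMIs in every member, from 1 to 46 per cell with a median of 14 in control and from 2 to 250 with a median of 29.5 in MMS. It was at 985 CPM in control and 2509 CPM in MMS (log2 ratio 1.35, 1.24 to 1.45). Ifi30, a reductase that opens disulfide bonds of antigens, was detected in 78 of 95 and 34 of 36 members, at 287 and 783 CPM (1.45, 1.25 to 1.64). These 2 genes were higher in MMS under all 20 alternative settings, by 0.81 to 1.51 for Ctss and by 1.24 to 1.90 for Ifi30. Of these settings, the minimums of 30 UMIs and 1 UMI over both libraries cannot change a gene's ratio, here or below. Lgmn, an endosomal protease, was at 487 and 816 CPM (0.74, 0.57 to 0.91), but in members with at most 5% mitochondrial UMIs its ratio was -0.86. Of the 11 measured genes of class II control and peptide supply, 6 were higher and 5 lower, with 2 at least 2-fold higher and a median of 0.22.

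Other genes of T cell contact gave mixed values. Cd86, a costimulatory ligand, had 90 UMIs in control and 55 in MMS members, and Cd80, its relative, 20 and 8, so neither differed beyond counting error. Cd40, the receptor for the T cell's CD40 ligand, had 11 and 15 UMIs (1.58, 0.36 to 2.84). Tnfsf9, the 4-1BB ligand, was at 104 CPM in 29 control members and at 16.1 CPM in 9 MMS members (-2.69, -3.78 to -1.77). The class I genes were near even, with 5 of 13 higher, 8 lower and none past 2-fold, among them B2m, the light chain of class I, at 1257 and 1411 CPM.

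Retnla was far lower in MMS than in control members. It encodes the secreted protein RELM alpha, a product of macrophages exposed to interleukin 4 or 13. It lies at chr16:48842551-48844461 on the plus strand in GENCODE M21 (GRCm38). In control members it ranged from 0 to 3089 UMIs per cell with a median of 37, and 56 of 95 cells had at least 1. In MMS members it ranged from 0 to 372 with a median of 0, and 13 of 36 cells had at least 1. The per-cell ranges overlapped because both libraries held members without the gene, but the top of the MMS range was far lower. Summed over members, Retnla was at 21199 CPM in control and 1864 CPM in MMS, 11.4-fold lower (log2 ratio -3.51, -3.59 to -3.42). It was lower under each of the 20 alternative settings, by log2 ratios from -4.60 to -3.12. In members with at most 5% mitochondrial UMIs it was at 23648 and 1886 CPM. Retnla is among the genes used to describe these macrophages, but the selection rule did not use it. In endothelial cells, which should lack it, 6.25% of control cells had UMIs, at 29.8 CPM and a median depth of 4004 UMIs. In MMS 0 of 824 endothelial cells had one, which allows a share of up to 0.364%.

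The control members held more Retnla than the other macrophages of their library, which were at 909 CPM in Lyve1, 2254 CPM in Cx3cr1 and 530 CPM in class II low cells, and than the dendritic cells at 681 CPM. In the MMS library the same 4 sets were at 61.7, 3.21, 1.32 and 60.6 CPM, so the gene was lower in MMS in each of the 5 sets.

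Other genes of alternatively activated macrophages did not follow Retnla as a group. Aldh1a2, the enzyme that makes retinoic acid, had 100 UMIs in 39 control members and 5 UMIs in 3 MMS members, at 73.5 and 8.04 CPM (-3.19, -4.85 to -1.92). In control it was detected in 41.1% of members, against 2.0% of Lyve1 macrophages. Ccl24, a chemokine that draws eosinophils, was at 194 and 53.0 CPM (-1.87, -2.44 to -1.35), and Cd163, the receptor for haemoglobin with haptoglobin, at 271 and 104 CPM (-1.37, -1.78 to -0.99). Each of these 4 lower genes was lower in all 20 alternatives. In the other direction, Il4ra, the receptor chain shared by interleukins 4 and 13, was at 41.2 and 111 CPM (1.43, 0.90 to 1.96). Chil3, a chitinase-like protein, had no UMI in control and 162 in 6 MMS members, at least 118-fold higher, with 67.3% of them in 1 cell. Mgl2, a lectin, was at 795 and 681 CPM (-0.22) and the mannose receptor Mrc1 at 673 and 935 CPM (0.47). Both of these changed sign in at least 1 alternative, Mgl2 to 0.27 without members that had 2 lymphoid or neutrophil UMIs and Mrc1 to -0.02 at a mitochondrial limit of 5%. Of 14 measured genes of this list, 9 were higher and 5 lower, with 4 past 2-fold each way, so it had no common direction.

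**Figure D2:**
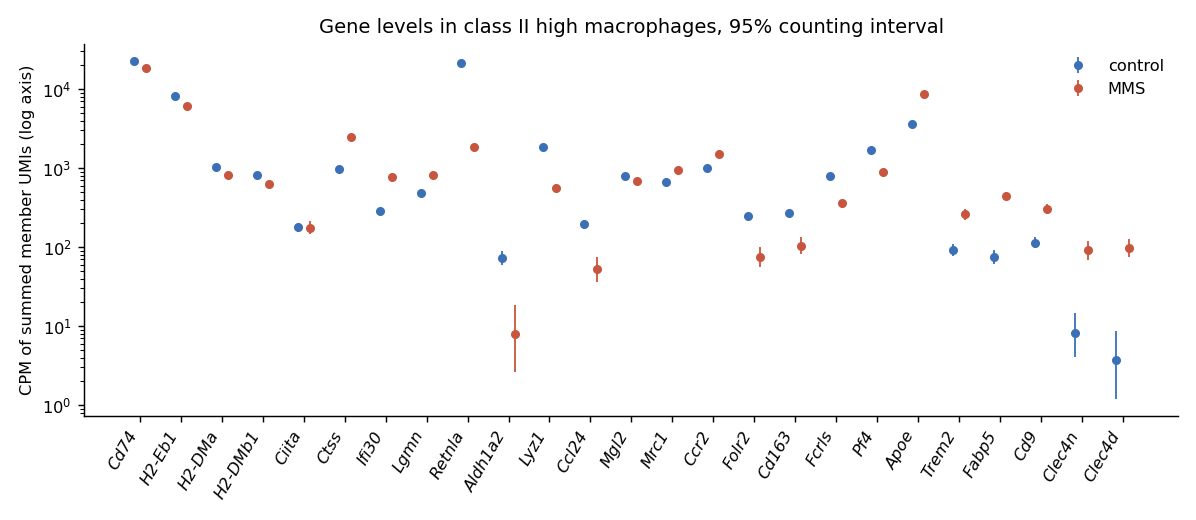
CPM of UMIs summed over members (log axis) for 25 genes, blue for the 95 control and red for the 36 MMS members, with 95% counting intervals. Cd74 at 22517 and 18460.5 CPM is nearly even, while Retnla at 21199 and 1864 CPM and Aldh1a2 at 73.5 and 8.04 CPM stand far apart.

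The members were not uniform in Retnla. In control, 39 cells had none, 4 had from 1 to 5, and 52 had at least 12. In MMS, 23 had none, 4 had from 1 to 7, and 9 had at least 28. A limit of 10 UMIs, set after these values were seen, therefore split them cleanly, into 54.7% (44.2 to 65.0) Retnla-high cells in control and 25% (12.1 to 42.2) in MMS. Among the high cells the median was 312 UMIs in control and 70 in MMS. Fewer high cells and less Retnla in each of them thus both went with the lower sum. High cells were deeper than low cells, with medians of 15255.5 and 10655 UMIs in control and 24401 and 14363 in MMS.

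In control, the high and low cells differed in many genes beside Retnla, though not in class II. Cd74 was at 22371 CPM in high and 22761 CPM in low cells. Lyz1, a lysozyme, was at 2829 CPM in 46 of 52 high cells and 159 CPM in 11 of 43 low cells (log2 ratio of high over low 4.16, 3.84 to 4.49). Ear2, a ribonuclease, was at 405 and 29.4 CPM (3.78, 3.04 to 4.64), and Ifitm6, an interferon-induced membrane protein, at 198 and 19.6 CPM (3.34). The other leaders of the high cells by the same rule of size included Ryr1, Rem1, Hr and Cnn3. Leading the low cells were the chemokine Ccl8, Ms4a7, Adipoq, Ly6e, Apoe, Cxcl16, Slfn5 and the Fc receptor Fcgr1. Apoe, a lipid carrier made by many resident macrophages, was at 826 CPM in high and 8136 CPM in low cells (-3.30, -3.42 to -3.18). Ms4a7, a macrophage membrane protein, was at 10.6 and 237 CPM (-4.48). Adipoq is an adipocyte gene, and 79.5% of its UMIs in control members were in 1 cell.

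Lyz1, Ear2, Ifitm6 and Apoe lay in the same order in the MMS library. Lyz1 was at 1396 and 163 CPM in high and low MMS cells (3.10, 2.72 to 3.51), Ear2 at 627 and 194 CPM, Ifitm6 at 505 and 21.5 CPM, and Apoe at 975 and 12556 CPM (-3.69, -3.90 to -3.48). Apoe was thus at a higher level in the Retnla-low members of both libraries. The MMS member that held most of the neutrophil marker UMIs, with 43643 UMIs in all, was 1 of only 9 high MMS cells. Its 70 Retnla UMIs were the median of those cells. The part of this cell in the MMS values was not tested. As the split was made on the cells that are compared, these ratios are a description.

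**Figure D3:**
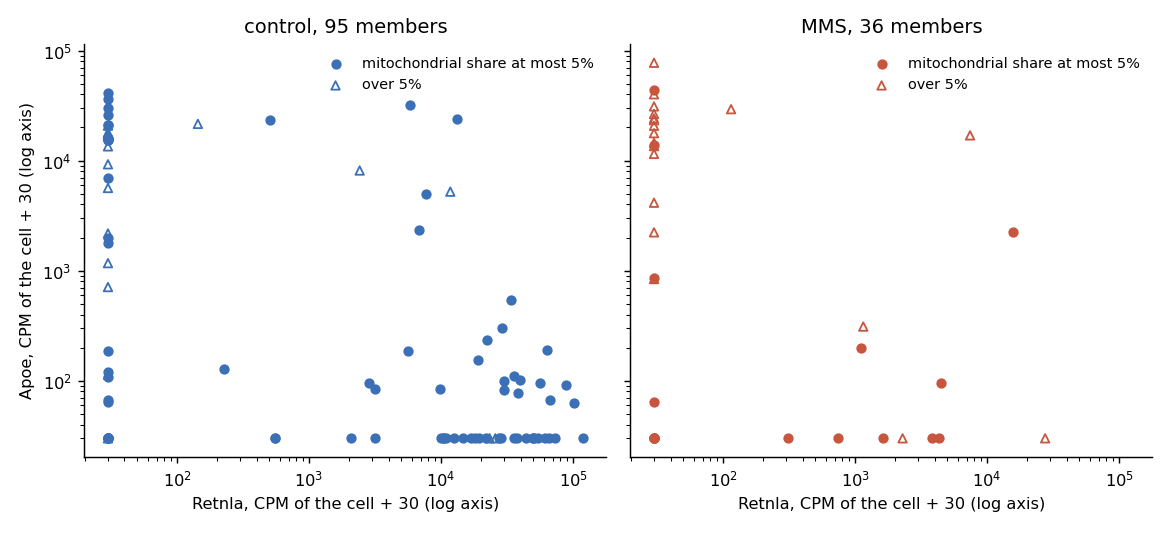
Apoe against Retnla in single members, both as CPM of the cell plus 30 on log axes, for 95 control (left) and 36 MMS members (right). Filled circles have at most 5% and open triangles over 5% mitochondrial UMIs. Most cells rich in Retnla lie low in Apoe, though 2 of 52 control and 1 of 9 MMS cells with at least 10 Retnla UMIs had at least 100 Apoe UMIs; 16 of the 27 MMS members with fewer than 10 Retnla UMIs are triangles.

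**Figure D4:**
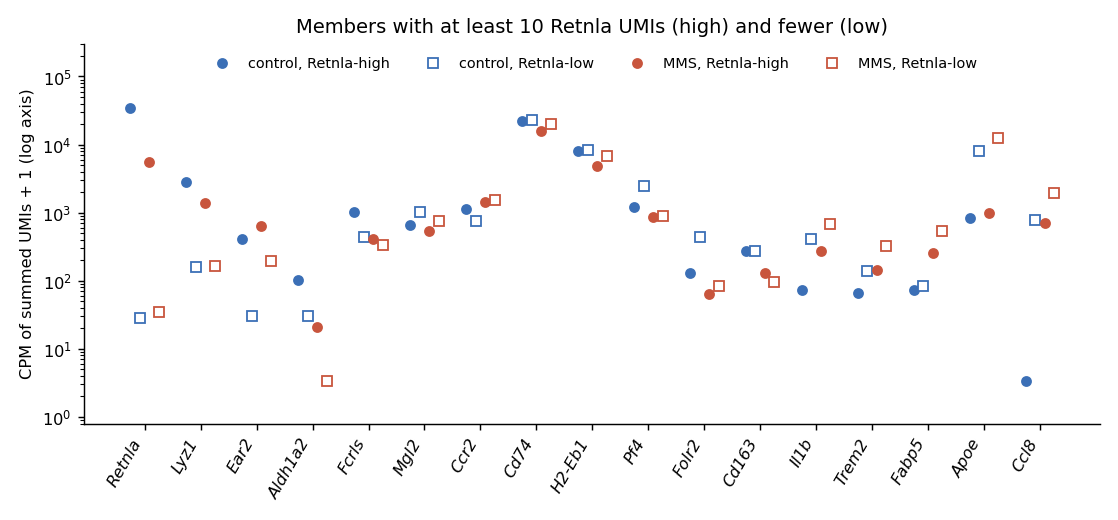
CPM plus 1 (log axis) of 17 genes in members with at least 10 Retnla UMIs (filled circles) and fewer (open squares), blue for control and red for MMS. Lyz1 and Ear2 are higher in the circles and Apoe in the squares of both colours. Cd74 is nearly level in control, at 22371 CPM in high and 22761 CPM in low cells. In MMS it is at 15675 CPM in high and 19821 CPM in low cells.

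Genes of lipid-handling macrophages were higher in MMS members in sum, but this moved with the mitochondrial share. Apoe was found in 59 of 95 control and 24 of 36 MMS members, from 0 to 290 UMIs per cell with a median of 1 in control and from 0 to 1567 with a median of 23.5 in MMS. It was at 3570 and 8756 CPM (1.29, 1.24 to 1.35), with 28.8% of the MMS UMIs in 1 cell. In cells with at most 5% mitochondrial UMIs it was at 2797 CPM in 77 control and 1531 CPM in 17 MMS members (-0.87), and in cells over 5% at 9145 CPM in 18 control and 19067 CPM in 19 MMS members. The direction of Apoe thus depended on which cells were admitted, and the part of cell quality in it was not tested. Abca1, a cholesterol exporter, behaved alike, at 92.6 and 239 CPM in all members and at 87.1 and 60.1 CPM up to 5%.

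Trem2, a lipid receptor, and Fabp5, a fatty acid carrier, kept their direction. Trem2 was in 45 of 95 and 27 of 36 members, at 92.6 and 262 CPM (1.5, 1.16 to 1.85), and at 83.7 and 115 CPM in cells up to 5% (0.46). Fabp5 was in 40 and 23 members, at 75.7 and 447 CPM (2.56, 2.23 to 2.90), and at 80.4 and 175 CPM in cells up to 5% (1.12). Much of its sum came from few cells. Of its 278 UMIs in MMS members, single cells held 91, 59, 29 and 26. The median per cell was 0 CPM in control and 70.5 CPM in MMS. Endothelial cells held Fabp5 at 1337 CPM in control and 1016 CPM in MMS, and their part in the members' values was not tested. Cd9, a tetraspanin, was at 113 and 302 CPM (1.42, 1.10 to 1.73). Lpl and Fabp4, a lipase and another fatty acid carrier, went the other way, at 554 and 196 CPM in control and 325 and 91.6 CPM in MMS. Of the 15 genes of this list, 11 were higher and 4 lower, with 7 at least 2-fold higher and 1 lower, and a median of 0.96. That median was -0.24 at a mitochondrial limit of 5% and 0.00 without members that had 2 lymphoid or neutrophil UMIs.

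Genes typical of long-lived resident macrophages were lower in MMS members. Folr2, a folate receptor, had UMIs in 41 of 95 control and 10 of 36 MMS members, at 244 and 75.5 CPM (-1.69, -2.17 to -1.25). All 10 MMS cells had over 5% mitochondrial UMIs. Pf4, a platelet-type chemokine that macrophages also make, was at 1701 and 882 CPM (-0.95, -1.08 to -0.81). Fcrls, an Fc receptor-like protein, was at 801 and 357 CPM (-1.17, -1.38 to -0.96). These 3 were lower under all 20 alternatives. Selenop, a selenium carrier, at 1313 and 1350 CPM and Maf, a factor of resident macrophages, at 307 and 334 CPM were level. Of 16 genes, 11 were lower and 5 higher, with 6 at least 2-fold lower and none higher, and a median of -0.61. The median was -2.74 up to a mitochondrial share of 5% and -0.06 where Lyve1 and Cx3cr1 both had to be 0, so its size depended on the cells admitted. Timd4 and Vsig4, which mark other resident macrophages, had 9 and 3 UMIs over the control members and 1 and 0 in MMS.

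Genes of monocytes gave no common direction. Ccr2, the receptor that brings monocytes out of the marrow, was in 77 of 95 control and 31 of 36 MMS members, with medians of 12 and 20 UMIs per cell. It was at 998 and 1512 CPM (0.60, 0.48 to 0.72). Control Lyve1 macrophages held it at 54.8 CPM. Retnla and Ccr2 were detected together in 51 of the 56 control members with Retnla and in 12 of the 13 in MMS. Ly6c2, of classical monocytes, had no UMI in control and 12 in 2 MMS members. Thbs1, thrombospondin, had 15 and 97 UMIs (3.82, 3.03 to 4.71), and Lyz1 went the other way, at 1827 and 567 CPM (-1.69, -1.85 to -1.53). Of 17 measured genes, 11 were higher and 6 lower, with 5 at least 2-fold higher and 2 lower. The median of 0.29 became -0.21 when the cell with most UMIs of each gene was left out.

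Of 12 measured cytokines and inflammatory enzymes, 7 were higher and 5 lower in MMS members, and most came from few cells. Il1b, interleukin 1 beta, was in 19 of 95 control and 16 of 36 MMS members, at 199.2 and 538 CPM (1.43, 1.20 to 1.67). Osm, oncostatin M, was in 10 and 16 members, at 14.7 and 91.6 CPM (2.64, 1.88 to 3.45), while Il6 was in 19 and 6, at 105 and 37.0 CPM (-1.51, -2.21 to -0.87). Il10 had 3 UMIs in control and 19 in MMS, 94.7% of them in 1 cell. The list's median was 0.68, and 0.04 without the top cell of each gene.

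Among chemokines, Ccl3 and Ccl4, which attract monocytes and T cells, had 26 and 68 UMIs in control and 76 and 152 in MMS (2.68 and 2.29), each in 8 to 13 cells of a library. Ccl4 was lower in MMS, at -2.31, without members that had 2 lymphoid or neutrophil UMIs, which left 47 control and 10 MMS cells. Ccl8, a monocyte chemoattractant, had 396 UMIs in 11 control members, 70.2% of them in 1 cell, and 958 in 11 MMS members (2.40). Of those 11 MMS cells, 10 had over 5% mitochondrial UMIs, and below that limit the ratio was -6.85. The most abundant members of the family, Cxcl2 and Ccl6, were at 3120 and 1653.5 CPM in control and 2441 and 1630 CPM in MMS, near even.

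Interferon-stimulated genes were lower in MMS in 13 of 15 cases, with a median of -0.87, and 4 were at least 2-fold lower and 1 higher. Ifi27l2a was at 931 and 463 CPM (-1.01, -1.20 to -0.82). The median shrank to -0.15 without members that had a dendritic UMI. Summed over the list, members were at 1329 CPM in control and 741 CPM in MMS. The sum was also lower in MMS in Lyve1 (2618 and 2041 CPM), Cx3cr1 (1269 and 552 CPM) and class II low macrophages (1490 and 703 CPM). The same held for dendritic (725 and 254 CPM), endothelial (1329 and 558 CPM) and fibroblast cells (744 and 206 CPM). The lower level was thus not particular to the members.

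C-type lectins that sense microbes and dead cells were among the genes with higher levels, though of 16 only 3 were at least 2-fold higher and 2 lower. Clec4n, or dectin 2, had 11 UMIs in 9 control members and 57 in 17 MMS members (3.5, 2.56 to 4.58). Clec4d, which pairs with related lectins, had 5 UMIs in 5 and 61 in 11 members (4.74, 3.44 to 6.41), and Clec4e, or Mincle, 36 and 53 (1.69, 1.05 to 2.34). In the MMS library Clec4n was at 91.6 CPM in members and at 128 and 89.2 CPM in class II low and Cx3cr1 macrophages, so it was not particular to the members. Among the inhibitory and activating Fc receptors, Fcgr2b was at 340 and 786 CPM (1.21, 1.02 to 1.39) and Fcgr3 at 507 and 450 CPM (-0.17). Lysosomal genes were higher in 14 of 17 cases with a median of 0.36, for example Psap, a sphingolipid activator, at 1897 and 3320.5 CPM (0.81), but the median was -0.30 at a mitochondrial limit of 5%. Glycolysis and hypoxia genes were higher in 13 of 14 cases, against 4968 of 9388 over all genes. Their median was 0.41, with a range of 0.33 to 0.64 over the alternatives, and 2 were at least 2-fold higher. Their sum was 1957 CPM in control and 2555 CPM in MMS members. It was also higher in MMS in Lyve1 (1952 and 2569 CPM), Cx3cr1 (1980 and 3157 CPM) and class II low macrophages (1496 and 3795 CPM). The same held for dendritic (2078 and 2204 CPM), endothelial (1470 and 2048 CPM) and fibroblast cells (1539 and 2526 CPM), so it was not particular to the members.

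Of 19 transcription factors of myeloid cells, 11 were higher and 8 lower. Spi1, the PU.1 factor, was at 346 CPM in both libraries, and Zeb2 at 842 and 853 CPM. Bhlhe40, a repressor, was at 63.2 and 243 CPM (1.94, 1.55 to 2.34), Irf8 at 31.6 and 90.0 CPM (1.51, 0.91 to 2.12) and Id2 at 124 and 289 CPM (1.22, 0.91 to 1.53). Batf3, a factor best known from dendritic cells, was at 218 and 108 CPM (-1.02, -1.42 to -0.63). Housekeeping genes had a median of -0.08, with Actb at 11186 and 10584 CPM.

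**Figure D5:**
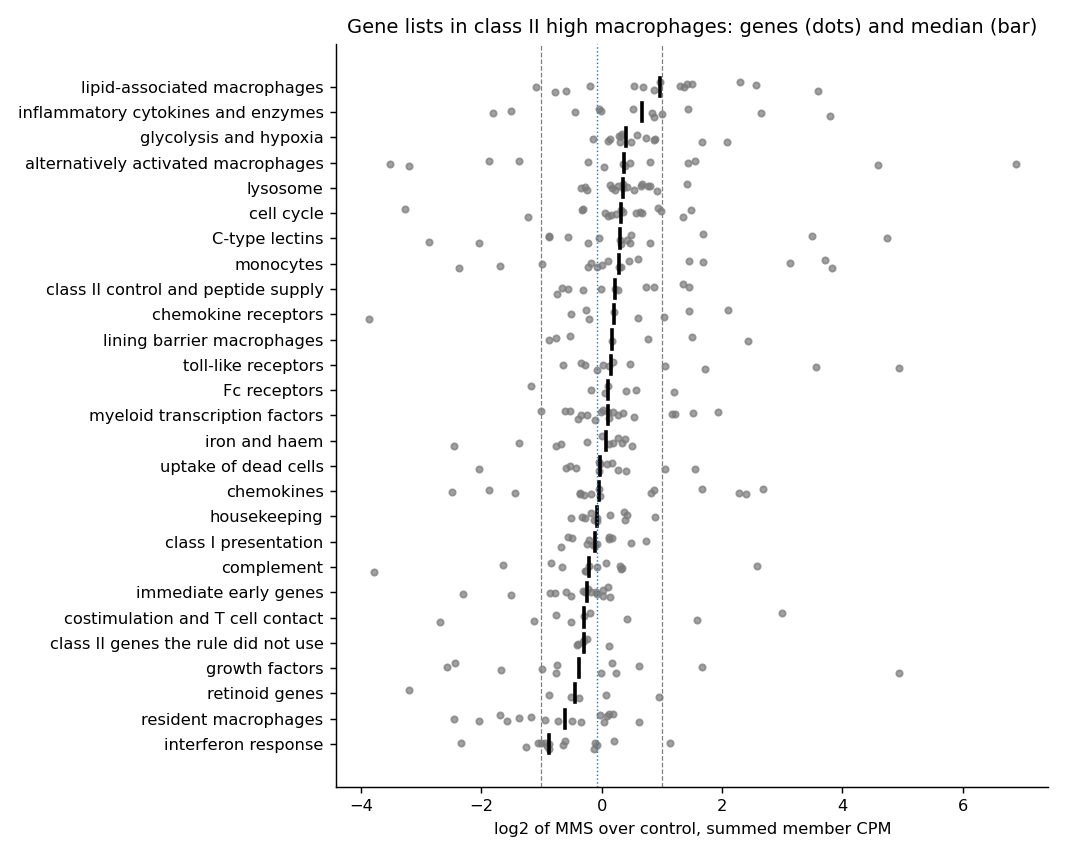
Log2 ratio of MMS over control in members for the genes of 27 lists (grey dots), with the median of each list as a black bar, ordered by median. Dashed lines mark 2-fold and the dotted line the housekeeping median of -0.08. Medians run from -0.87 for interferon response to 0.96 for lipid-associated macrophages, and in most lists genes lie on both sides.

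By the rule of size over all genes, the 12 highest ratios in MMS members were those of S100a8, S100a9, Wfdc21, Chil3, F10, Clec4d, F7, Thbs1, Bambi, Clec4n, Sirpb1c and Anpep. For S100a8, S100a9 and Wfdc21, neutrophil genes, the neutrophil-laden cell held 99.4%, 99.7% and 98.3% of the MMS UMIs. F10, coagulation factor X, had 1 UMI in control and 35 in 8 MMS members (6.26, 3.68 to 11.6), and F7, factor VII, none and 33, at least 24.0-fold higher, of which 63.6% were in 1 cell. Bambi, a decoy receptor for TGF-beta, likewise had 73.0% of its 37 MMS UMIs in 1 cell. Sirpb1c, a signal-regulatory protein, had 8 UMIs in 6 control and 34 in 15 MMS members (3.22, 2.08 to 4.54). Anpep, aminopeptidase N, had 15 in 11 and 50 in 16 (2.87, 2.01 to 3.80). Clec4d, Clec4n, Sirpb1c and Anpep were thus spread over more members than the others.

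The 12 lowest were Crim1, Retnla, Tppp, Aldh1a2, C1qtnf1, Ryr1, Rhobtb1, Car3, Tnfsf9, Bank1, Areg and Plaat3. Crim1, a membrane protein that binds BMPs, had 42 UMIs in 29 control members and 1 in MMS (-4.26, -9.60 to -1.71). Tppp, a tubulin-binding protein, had 61 in 38 and 3 in 3 (-3.22, -5.53 to -1.60). Ryr1, a calcium release channel, had 53 in 26 and 3 in 3 (-3.01, -5.34 to -1.39), and in control it also led the Retnla-high cells, at 61.2 CPM against 1.96 CPM in the low cells. Bank1, an adaptor known from B cells, had 69 in 37 and 5 in 4 (-2.66, -4.33 to -1.37), and Plaat3, a phospholipase, 66 in 47 and 6 in 5 (-2.33, -3.83 to -1.13). Areg, a ligand of the EGF receptor, was found in 12 control and 3 MMS members, at 95 and 8 UMIs. Car3, an enzyme of adipocytes, had 128 UMIs in control, 35.9% of them in 1 cell. The 5 adipocyte markers together were at 248 CPM in control and 40.2 CPM in MMS members, and their part in Car3 was not tested. C1qtnf1 had a ratio of -3.08, which was 0.63 without members that had 2 lymphoid or neutrophil UMIs.

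Against Lyve1 macrophages of the control library, 1372 of 12491 genes (11%) were at least 2-fold higher in the members and 1551 (12.4%) lower. The Lyve1 cells held 12721815 UMIs and the members 1360120. With a 0 set to 3 UMIs, a gene with no member UMI and few Lyve1 UMIs is scored as higher in members. The 11%, and the higher counts of the lists below, can therefore be too high. The leading genes on the members' side were Ear2, Tnip3, Grap2, Ndnf, Cd226, Sh2d1b1, Aldh1a2 and Coro2a. Tnip3, an inhibitor of NF-kB, was at 320 CPM in members and 4.56 CPM in Lyve1 macrophages (6.13, 5.73 to 6.55), and Cd226, an adhesion receptor better known from lymphocytes, at 164 and 3.85 CPM (5.41, 4.96 to 5.89). On the other side were Vsig4, Cspg4, Pmepa1, Syngr1, S100b, Lhfpl2, Rgs7bp and Ass1. Vsig4, a complement receptor, was at 2.21 CPM in members and 1836 CPM in Lyve1 macrophages, and Pmepa1, an inhibitor of TGF-beta signalling, at 8.82 and 1360.4 CPM. Of 18 genes of resident macrophages, 12 were at least 2-fold lower and 2 higher in members, and of 13 genes for the uptake of dead cells, 11 were lower and 1 higher. Of the 17 cell cycle genes, 11 were at least 2-fold higher and none lower.

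Against Cx3cr1 macrophages of the same library, 581 of 9343 genes (6.22%) were at least 2-fold higher in the members and 629 (6.73%) lower. These cells held 555513 UMIs, far fewer than the Lyve1 cells, so the shares of the 2 comparisons are not set against each other. The class II genes were even, with a median of 0.09 over 6 genes and none past 2-fold. Cd74 was at 22517 and 21404 CPM. Leading on the members' side were Cd209f, Ccl8, Rem1, Retnla, Ear2, Ifitm6, Mmp9 and Bcam, with Retnla 9.41-fold higher. On the other side were Hist1h1b, Hist1h2ap, Hist1h2ae, Nusap1, Hist1h1e, Cdk1, Spp1 and Prc1, of which all but Spp1 are genes of dividing cells. With only 39 Cx3cr1 macrophages, a few dividing cells weigh heavily there.

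In the MMS library Cd74 was at 18460.5 CPM in members and at 5160 CPM in Cx3cr1, 206 CPM in Lyve1 and 254 CPM in class II low macrophages. The members had to pass the class II limit in both libraries and these sets did not, so the gap is in part set by the rule. The dendritic cells held it at 36469.5 CPM in control and 32749 CPM in MMS, above the members in both libraries. Dendritic cells themselves numbered 177 in control and 17 in MMS.

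Against class II low macrophages in control, the leading genes on the members' side were H2-Eb1, Lyz1, Clec4b1, Retnla, Plbd1, Cd52, Cd74 and Socs6, and on the other side Vsig4, Pmepa1, Aqp1, Cd209g, Ednrb, Ang and Cd209f among others. These sets were split by H2-Ab1 and H2-Aa UMIs alone, so the lead of H2-Eb1 and Cd74 is in part set by the rule. Clec4b1, a lectin, was at 293 and 5.52 CPM (5.73, 3.25 to 11.04). Class II low cells were thus nearer to the Lyve1 macrophages in Vsig4 and Pmepa1, and they numbered only 24.

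Few members were dividing. UMIs of at least 2 of 8 proliferation genes were found in 9 of 95 control members (9.47%, 4.42 to 17.2) and 4 of 36 MMS members (11.1%, 3.11 to 26.1), against 2.0% and 4.17% of Lyve1 macrophages. The shares were 12.8% and 7.84% in Cx3cr1 macrophages and 8.33% and 5.08% in class II low cells. Thinned to 2000 UMIs per cell, which left out 1 control member, the members' shares were 6 of 94 (6.38%, 2.38 to 13.4) and 2 of 36 (5.56%, 0.68 to 18.7). Over 20 random draws of the thinning, a choice made after seeing the data, the counts ran from 3 to 6 cells in control and from 1 to 3 in MMS. These are shares of cells in 1 library each, and no comparison of the libraries was made from them.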

How the data were processed

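Single-cell RNA-seq of mouse synovium was measured in 2 libraries, control and MMS, each made from 20 pooled knees. The deposited matrices hold raw UMI counts per gene and barcode, 8810 barcodes in control and 5286 in MMS. They were made with Cell Ranger 5.0.0 per the file headers, but version 2.0.0 and the build mm10 are what the submitters' processing notes list.

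The members and lists were chosen with earlier results of these data known, so they are a description. Doublets were called with scrublet in scanpy 1.11.5 and kept. Members' counts were summed per library and divided by their total (CPM). Genes with at least 10 UMIs over both libraries were compared by the log2 ratio of MMS over control, with an exact conditional binomial interval at 95%. CPM have exact Poisson and shares exact Clopper-Pearson intervals. A count of 0 was set to 3 UMIs, which makes the ratio a bound unless the other set has few UMIs for its depth. Intervals cover counting error only, and with 1 library per group no test was made. Genes past 2-fold were counted as called.

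Named genes were those with the 12 highest and 12 lowest CPM ratios between libraries, and 8 each way between macrophage sets in control. Each had at least 30 UMIs where it was higher, was detected in at least 10% of cells there, and was there at 0.5 times or more of its level over all kept cells. Genes of the selection rule, mitochondrial, ribosomal, haemoglobin, unnamed and sex-linked genes were left out. List members are named beside them. Gene identifiers matched GENCODE M21 in 32158 of 32285 cases. Promoters came from RefSeq. The ratio code was tested on simulated data. Python 3.11.15, numpy 2.4.6, scipy 1.17.1 and pandas 2.3.3 were used. In all 20 alternative settings were tried, of which the omission of the neutrophil-laden cell and of each gene's top cell, like the Retnla split, was chosen after seeing the data. Results for some genes are not reported here.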

Additional observations from a re-analysis of the deposited data

How the results depend on the processing

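Under 20 alternative settings, 46 of the 55 genes tried kept their direction throughout, and 1084 of 1099 gene values had the direction given above. The 55 included the genes picked for the highest and lowest ratios in these data, so for those a kept direction was largely set by the choice. Settings that change only a gene's minimum UMIs over both libraries cannot alter its ratio, so their values match by construction. Other genes named above, such as Osm and Psap, were not among the 55. The members' share differed between libraries by -2.88 to -1.24 percentage points of gated macrophages.

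A mitochondrial limit of 5% left 77 control and 17 MMS members. It gave list medians of -0.048 for class II, -2.74 for resident and -0.237 for lipid-associated genes, and log2 ratios of -0.870 for Apoe, -0.534 for Abca1 and -6.85 for Ccl8. Leaving out members with 2 B, T or NK, or neutrophil UMIs left 47 and 10 members. It gave medians of -2.23 for resident and 0.00142 for lipid-associated genes, and ratios of 0.635 for C1qtnf1, -0.0499 for Abca1, -2.54 for Ccl8 and -2.31 for Ccl4. With Lyve1 and Cx3cr1 at 0 the resident median was -0.0613. The cause of these shifts was not tested. A minimum of 30 UMIs over both libraries, which compares fewer genes, gave 304 genes at least 2-fold higher and 277 lower. A minimum of 1 UMI gave 3161 higher and 920 lower, but that 3161 is not a count of genes raised in MMS. With a 0 set to 3 UMIs, a gene with 1 control and no MMS UMI is there scored as higher in MMS.

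No paired analysis was possible because each group had 1 library. Depth limits single genes, as for Cd40, whose 11 and 15 UMIs gave an interval from 0.36 to 2.84.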
